A study of Mus musculus with 6 samples.

Results

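Metallothioneins and zinc transporters set how much free zinc a cell holds, and 9 mouse genes of this system were examined in AML12 cells after hypoxia and reoxygenation (H/R). The members were the metallothionein genes Mt1 and Mt2, the zinc sensor gene Mtf1, the exporter genes Slc30a1, Slc30a5 and Slc30a7, and the importer genes Slc39a8, Slc39a10 and Slc39a14. They were taken by exact gene symbol, and all 9 were found among the 25330 genes of the tables. AML12 is a hepatocyte line from a mouse, and the labels give its genotype as WT. The 3 Control libraries came from cells kept at 21% oxygen in DMEM/F12 with serum, an insulin-containing supplement and dexamethasone, a glucocorticoid. The 3 H/R libraries came from cells moved to medium without serum and glucose, held at 1% oxygen for 6 h and reoxygenated for 2 h. The effects of oxygen and of medium cannot be told apart in this design, and whether the replaced medium still held dexamethasone is not given in the sources used here. Nothing in the labels says that libraries of a group came from separate cultures, so the p-values measure the spread between libraries, which may be technical.

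Metallothioneins are small cysteine-rich proteins that bind zinc and copper and release them when oxidized. Proteins of the SLC30 family, also called ZnT, move zinc out of the cytosol, either across the plasma membrane or into organelles. Proteins of the SLC39 family, also called ZIP, bring zinc into the cytosol. MTF-1, the product of Mtf1, senses free zinc and binds metal response elements in DNA. It is known to activate Mt1, Mt2 and Slc30a1 and to repress Slc39a10 when zinc is high. In liver, metallothionein genes are also known to respond to glucocorticoids and to inflammatory signals.

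Promoter sequences are shown for Mt1, Mt2 and Slc30a1, the members known as targets of MTF-1 activation, to show where the letters of the metal response element lie. They are the 250 bases before the RefSeq start site of each gene (GRCm38.p6, all on the plus strand), and capitals mark each match to the core letters TGCACNC or TGCGCNC on either strand. The stretches are chr8:94178839-94179088 for Mt1, chr8:94172368-94172617 for Mt2 and chr1:191906531-191906780 for Slc30a1.
Mt1: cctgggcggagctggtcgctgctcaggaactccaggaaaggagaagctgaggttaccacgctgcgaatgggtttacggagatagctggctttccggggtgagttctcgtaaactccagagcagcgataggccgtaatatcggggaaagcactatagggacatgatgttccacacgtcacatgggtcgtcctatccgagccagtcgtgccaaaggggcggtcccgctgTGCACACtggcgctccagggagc
Mt2: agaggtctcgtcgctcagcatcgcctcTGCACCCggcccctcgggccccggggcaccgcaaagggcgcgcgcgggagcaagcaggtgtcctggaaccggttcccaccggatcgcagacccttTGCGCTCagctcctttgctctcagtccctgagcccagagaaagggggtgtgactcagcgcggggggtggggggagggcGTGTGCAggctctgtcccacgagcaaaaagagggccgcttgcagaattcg
Slc30a1: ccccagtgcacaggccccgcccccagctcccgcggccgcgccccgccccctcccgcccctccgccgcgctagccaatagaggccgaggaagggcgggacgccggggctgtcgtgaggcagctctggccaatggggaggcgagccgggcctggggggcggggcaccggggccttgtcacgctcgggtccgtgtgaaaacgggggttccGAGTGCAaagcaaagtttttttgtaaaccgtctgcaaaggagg
Further core matches lay just past the start sites, and they are shown with capitals in the same way. The Mt1 stretch is chr8:94179089-94179117, that of Mt2 is chr8:94172620-94172630 and that of Slc30a1 is chr1:191906809-191906819.
Mt1 past the start: tcTGCACTCcgcccgaaaagTGCGCTCgg
Mt2 past the start: tcGTGCGCAgg
Slc30a1 past the start: ccGAGCGCAgt

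The 300-base windows, with 250 bases before and 50 after the start site, held 3 metal response cores for Mt1, 4 for Mt2 and 2 for Slc30a1. Among all 32851 RefSeq promoter windows of this length, 25.7% held at least 1 core, 7.11% at least 2, 1.97% at least 3 and 0.517% at least 4. Slc30a5 had 1 core, as had 1 of the 2 windows of Slc39a8. The windows of Mtf1 and Slc30a7 and both windows of Slc39a10 had 0 of these letters, and Slc39a14 had no entry in the table. The letters of the hypoxia response element, ACGTG or GCGTG on either strand, occurred 2 times for Mt1, 2 for Mt2, 1 for Slc30a1, 4 for Slc30a5, 1 for Slc30a7 and 3 in that same Slc39a8 window. They occur at least once in 43.8% of all windows, CACGTG is counted once per strand, and 1 such match in Mt2 shares bases with a metal response core. The full palindrome of the glucocorticoid response element was in 0 of the member windows and in 3 of all windows. These matches describe letters and not binding. Both Slc39a10 windows begin away from the 5′ end of the gene in the deposited tables.

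**Figure D1:**
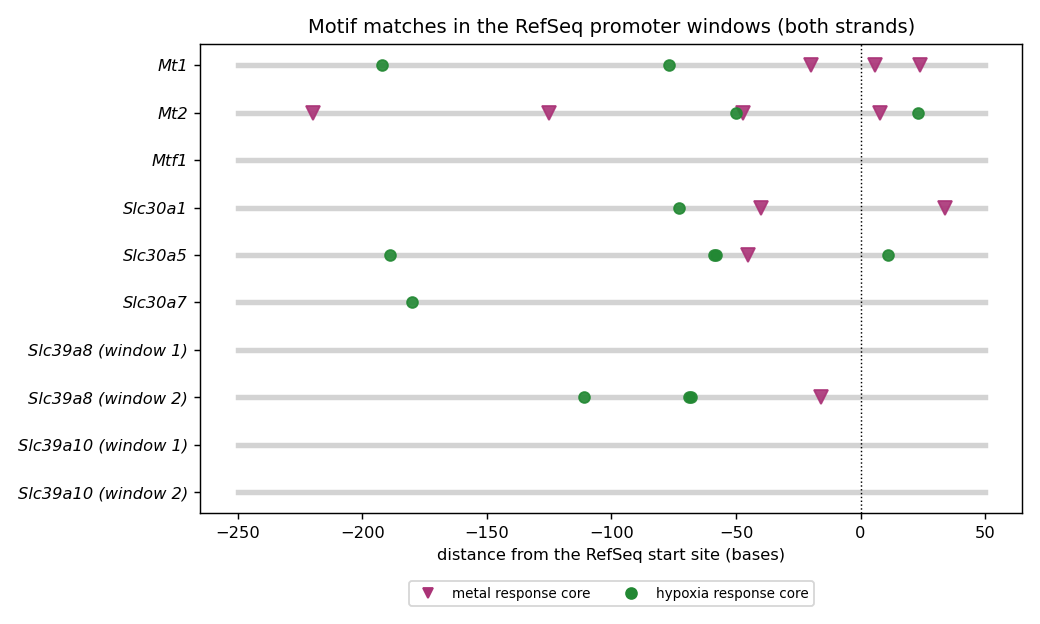
Position of motif letters in the RefSeq promoter windows of the members, from 250 bases before to 50 bases after the start site (x axis, bases; 1 row per window). Triangles mark metal response cores and circles hypoxia response cores. Mt1 and Mt2 carry 3 and 4 metal response cores and Slc30a1 carries 2.

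Total counts lay between 20438746 and 21854790 per library. The labelled cell type was checked against markers. Among 10 hepatocyte markers, Hnf4a had 2035 to 3209 counts and Krt8 51180 to 79895, whereas Alb had 31 to 542. In the test described below, 31.0% of all tested genes passed higher and 31.8% lower after H/R. Of the 8 hepatocyte markers that could be tested 2 passed higher and 6 lower after H/R. The number lower was 5 without Control replicate 1, where Apoa1 was lost and Alb went from a log2 fold change of -2.85 to -2.07, and it was 4 without Control replicate 3 or without H/R replicate 1. Serpina1a and Cps1 had 61 and 18 counts in Control replicate 1 and at most 1 in each other library, so Control replicate 1 stood apart in these transcripts and values without it are given below where they matter. Of the 5 endothelial markers none exceeded 4 counts in any library. Of the 6 macrophage and blood cell markers, Cd68 rose from 16 to 22 counts in Control to 113 to 137 after H/R and the other 5 had at most 5 counts. Of 5 stellate and fibroblast markers none exceeded 16 counts. Of the 4 tested cholangiocyte markers Krt19, Krt7 and Sox9 passed higher and Spp1 lower, and the summed normalized count of that list was 31197 to 34340 in Control and 56700 to 58997 after H/R. The part of these markers in the results on zinc genes was not tested. In bulk libraries, fewer cells of a kind and less RNA per cell cannot be told apart.

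On the scale per gene length (RPKM), the metallothioneins were by far the most abundant members. The deposited RPKM of Mt2 was 217 ± 6.82 in Control and 244 ± 11.4 after H/R (SD, n = 3 each). That of Mt1 was 90.9 ± 10.3 and 92.8 ± 3.56. The gene length behind the Mt1 value is 1246 bases, which is the whole span of the locus, introns included, so the level of Mt1 relative to Mt2 (588 bases of exons) depends on that gene model. The transporters followed at a much lower level, with Slc30a5 at 9.77 ± 0.584, Slc39a14 at 7.32 ± 0.236, Slc30a1 at 4.39 ± 0.32 and Slc39a10 at 3.89 ± 0.147 RPKM in Control. Mtf1 stood at 1.79 ± 0.126 and Slc30a7 at 1.14 ± 0.0264 RPKM. No neighbours in this order overlapped between their 3 Control values. After H/R the order changed at 1 place, with Slc39a14 (8.28 ± 0.522 RPKM) above Slc30a5 (7.33 ± 0.22 RPKM). Slc39a10 (2.25 ± 0.219 RPKM) and Mtf1 (2.09 ± 0.049 RPKM) then overlapped.

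**Figure D2:**
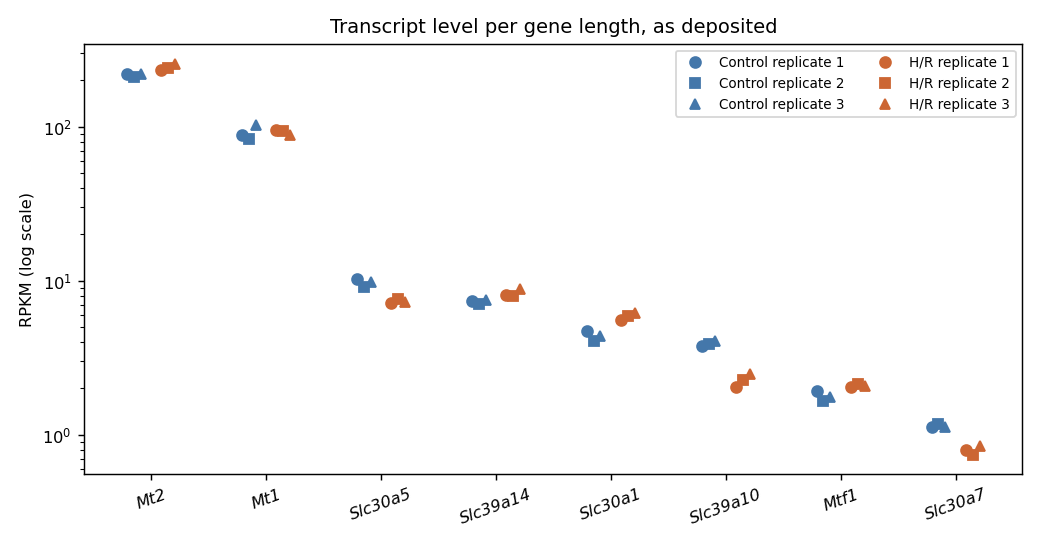
Deposited RPKM of 8 members (y axis, log scale) in each library, ordered by the Control mean. Blue marks are the 3 Control libraries, orange marks the 3 H/R libraries, and the marker shape gives the replicate. Mt2 and Mt1 lie above 80 RPKM in every library and the other members below 11 RPKM. Slc39a8, at 0 in 5 libraries, is not drawn.

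For the comparison of H/R with Control, counts were scaled by the TMM method and tested in edgeR with quasi-likelihood F tests, and p-values were adjusted over 14020 genes by the Benjamini-Hochberg method. A gene passed at an adjusted p under 0.05. Of the 9 members 8 could be tested, and 7 passed, 4 of them higher and 3 lower after H/R. Among all tested genes 62.8% passed, 31.0% higher and 31.8% lower, so passing the test was common in these data. A 2-fold change, the second threshold of the study, was reached by 0 of the 8 members, against 8.52% of all genes (4.25% higher and 4.27% lower). With scaling by library totals the share of such genes that rose went from 49.9% to 37%, and the median over all genes moved by more than 0.1. The number of members past 2-fold was also 0 with DESeq2, while all 8 had an unadjusted p under 0.05 in edgeR's test. Over all tested genes, 9185 of 14020 had an unadjusted p under 0.05 in that test. The median log2 fold change was 0.21 over the 8 members and -0.01 over all tested genes. The group values of all 7 members that passed did not overlap, which held for 65.9% of all tested genes. In each of these the exact two-sided permutation test gave p = 0.1, the smallest that 3 against 3 libraries allow.

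**Figure D3:**
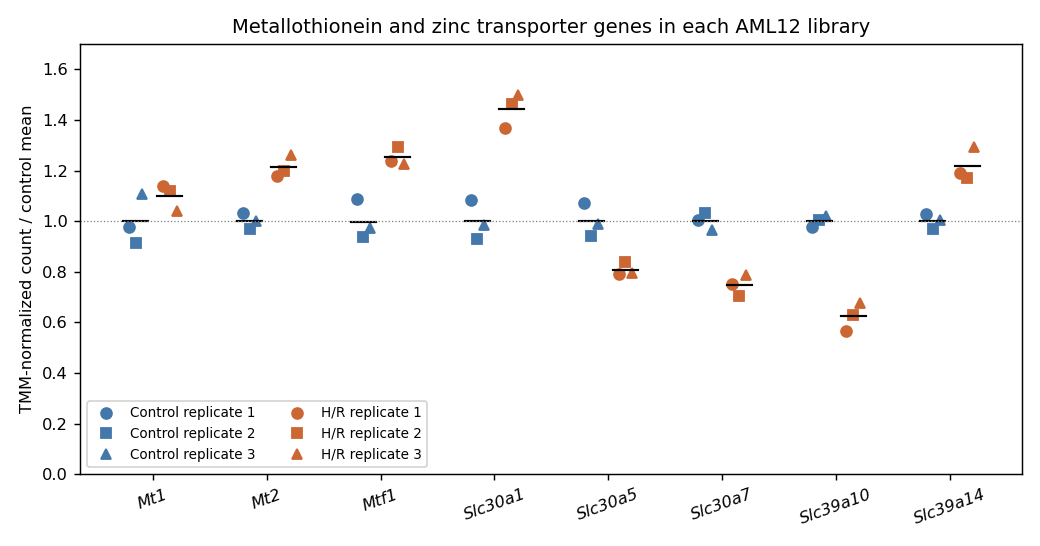
TMM-normalized count of 8 members in each library divided by the Control mean of the gene (y axis, starting at 0). Blue marks are Control, orange marks H/R, black bars group means, and the shape gives the replicate. Mt2, Mtf1, Slc30a1 and Slc39a14 lie above Control in all 3 H/R libraries, Slc30a5, Slc30a7 and Slc39a10 lie below, and the groups overlap for Mt1.

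The metallothioneins changed little. Mt2 (chromosome 8 of GRCm38, 94172664 to 94173568, plus strand) was counted 2831, 2582 and 2770 times in Control and 2842, 2889 and 3289 times after H/R, always in the order of replicates 1, 2 and 3. Scaled by library, every H/R value (3061, 3116 and 3287) lay above every Control value (2518 to 2681). Mt2 rose by 21.2%, a log2 fold change of 0.28 (SE 0.0439, edgeR's adjusted p = 1.31e-06). Without Control replicate 1 the log2 fold change was 0.30, and with scaling by library totals it was 0.17 (edgeR's adjusted p = 0.000958).

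The Mt2 value carries a limit. The gene RP23-98C9.5 on the opposite strand covers 73.5% of the Mt2 exon length, and it was given between 98.4% and 98.8% of the Mt2 count in every library. Reads from Mt2 and from this antisense partner therefore cannot be told apart, and both rows had a log2 fold change of 0.28.

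Mt1 (chromosome 8, 94179082 to 94180327, plus strand, downstream of Mt2) had 2387, 2165 and 2722 counts in Control and 2441, 2398 and 2404 counts after H/R. The normalized values overlapped, with 2260, 2112 and 2563 in Control against 2629, 2586 and 2402 after H/R. Its log2 fold change was 0.13 (95% interval 0.01 to 0.26, edgeR's adjusted p = 0.0532), which did not pass. The call depended on single libraries. Without Control replicate 3 the log2 fold change was 0.22 (edgeR's adjusted p = 0.000323). Without H/R replicate 3 the log2 fold change was 0.18 (adjusted p = 0.0228). With an offset on gene length it was 0.16 (adjusted p = 0.0141), and with scaling by library totals 0.03 (adjusted p = 0.725).

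That Mt2 passed and Mt1 did not does not show that they differed. Within each library the log2 ratio of Mt2 to Mt1 counts was 0.25, 0.25 and 0.03 in Control and 0.22, 0.27 and 0.45 after H/R. The ranges overlapped, and the mean ratio was higher by 0.14 after H/R on this scale (exact two-sided permutation test, p = 0.4, n = 3 each). The difference was 0.06 without Control replicate 3 and 0.07 without H/R replicate 3. The longest run of bases shared by coding transcripts of both genes was 20 bases. Together the metallothioneins summed to 308, 291 and 323 RPKM in Control and 331, 335 and 346 RPKM after H/R. Of the other genes of that family, Mt4 had 2 counts in Control replicate 1 and 0 elsewhere. Mt3 was not found by its symbol among the 25330 genes, so no value is given.

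Mtf1, the zinc-sensing transcription factor gene (chromosome 4, 124802104 to 124849800, plus strand), had 374, 313 and 337 counts in Control and 375, 390 and 400 counts after H/R. After scaling, the H/R values of 404, 421 and 400 all exceeded the highest Control value of 354. Mtf1 rose by 25.3% (log2 fold change 0.33, SE 0.0804, edgeR's adjusted p = 0.000686). A limma fit to log2(RPKM + 0.1) gave 0.21 and did not pass (adjusted p = 0.0617). Of its exon length, 8.09% lies over 1110065P20Rik on the opposite strand.

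Slc30a1 encodes ZnT1, the exporter that carries zinc out through the plasma membrane, and it had the largest rise of the members tested. This gene (chromosome 1, 191906767 to 191913247, plus strand) had 539, 448 and 492 counts in Control and 597, 637 and 704 counts after H/R. The normalized count went from 470 ± 37.2 to 678 ± 31.3 (SD, n = 3 each), and no H/R library came below 643 or Control library above 510. Slc30a1 rose by 44.2%, a log2 fold change of 0.53 (SE 0.0676, edgeR's adjusted p = 2.46e-08). The value stayed between 0.48 and 0.59 when each library was left out in turn. An antisense gene, 1700034H15Rik, overlaps 8.92% of its exon length.

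Slc30a5 and Slc30a7 fell. Their products, ZnT5 and ZnT7, load zinc into the early secretory pathway, where it is needed by enzymes such as alkaline phosphatase. Slc30a5 (chromosome 13, 100802649 to 100833427, minus strand) had 717, 612 and 665 counts in Control and 466, 492 and 503 counts after H/R. Its normalized count fell from 634 ± 41.6 to 512 ± 16.4 (SD, n = 3 each), a log2 fold change of -0.31 (SE 0.0659, edgeR's adjusted p = 0.000117). Slc30a7 (chromosome 3, 115938973 to 116007406, minus strand) had 275, 274 and 266 counts in Control and 181, 169 and 204 counts after H/R. Its normalized count fell from 259 ± 8.46 to 194 ± 10.9 (SD, n = 3 each), a log2 fold change of -0.42 (SE 0.0956, edgeR's adjusted p = 0.000275). Both genes had every H/R library below every Control library. In Slc30a7, 16% of the exon length overlaps genes on the opposite strand.

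Among the importers, Slc39a10 had the largest fall of the members. It encodes ZIP10, a plasma membrane importer. The gene (chromosome 1, 46807544 to 46892852, minus strand) overlaps no other annotated exon. It had 499, 498 and 525 counts in Control and 254, 282 and 327 counts after H/R. The H/R counts were thus all lower than the lowest Control count by a wide margin. The normalized count fell from 484 ± 11 to 301 ± 26.7 (SD, n = 3 each), a log2 fold change of -0.68 (95% interval -0.84 to -0.52, edgeR's adjusted p = 3.56e-09). This was the only member with a change of at least 1.5-fold, which 24.4% of all tested genes reached with an adjusted p under 0.05.

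Slc39a14 rose. Its product ZIP14 is a plasma membrane importer of hepatocytes that also carries iron and manganese and is known to be induced in acute inflammation. Slc39a14 (chromosome 14, 70303469 to 70351425, minus strand) had 1710, 1564 and 1685 counts in Control and 1740, 1709 and 2037 counts after H/R. Normalized, all H/R values (1874, 1843 and 2036) exceeded the highest Control value of 1619, although raw counts of H/R replicate 2 and Control replicate 1 differed by only 1. The log2 fold change was 0.28 (SE 0.0485, edgeR's adjusted p = 5.28e-06), and 0.18 with scaling by library totals (adjusted p = 0.00244).

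Slc39a8, which encodes the related importer ZIP8, was at the detection limit. This gene (chromosome 3, 135825279 to 135888572, plus strand) had 4 counts in Control replicate 1, the library with the Serpina1a and Cps1 counts, and 0 in the other 5 libraries. A count of 0 allows up to 3 counts at this depth, covering counting error only. No test or fold change is given.

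The members were then set beside the rest of their families, 10 SLC30 genes, 14 SLC39 genes and 4 metallothioneins. Of these 28 genes 18 could be tested, and 15 passed, 6 higher and 9 lower after H/R. Among all tested genes 62.8% passed, 31.0% higher and 31.8% lower. The median log2 fold change of the 18 genes was -0.26, against -0.01 over all tested genes. In edgeR's test 0 of the 18 reached 2-fold, against 8.52% of all tested genes, and it was also 0 in DESeq2. An unadjusted p under 0.05 in edgeR's test was found for 17 of the 18, and for 9185 of all 14020 tested genes. Without Control replicate 1, 14 family genes passed, 6 higher and 8 lower.

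Exporters split by gene. Of 6 tested SLC30 genes 3 passed higher and 3 lower, against 31.0% and 31.8% of all tested genes. Besides Slc30a1, Slc30a4 rose by a log2 fold change of 0.75 (edgeR's adjusted p = 1.01e-12), from a normalized count of 601 ± 22.6 to 1010 ± 81.6 (SD, n = 3 each). Slc30a4 encodes ZnT4, an exporter into vesicles. Slc30a9 rose by 0.27, from 821 ± 11.9 to 990 ± 32.9 (SD, n = 3 each), and its product is linked to mitochondrial zinc. In a limma fit to log2(RPKM + 0.1) Slc30a9 had 0.16 and did not pass (adjusted p = 0.0582). Slc30a6, whose product pairs with ZnT5, was lower by the test at a log2 fold change of -0.36 (edgeR's adjusted p = 0.0452). That call was lost with DESeq2 (adjusted p = 0.124), and without H/R replicate 1 it was -0.20 (adjusted p = 0.305). It was also lost without Control replicate 1 (adjusted p = 0.102) and without Control replicate 3 (adjusted p = 0.112).

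Importers were mostly lower. Of 10 tested SLC39 genes 6 passed lower and 2 higher, against 31.8% and 31.0% of all tested genes. The median log2 fold change was -0.43 over these 10 genes and -0.01 over all tested genes. Beside Slc39a10, the SLC39 genes that fell were Slc39a4 (log2 fold change -0.74), Slc39a3 (-0.65), Slc39a9 (-0.62), Slc39a1 (-0.54) and Slc39a6 (-0.21). ZIP1, ZIP3, ZIP4 and ZIP6 are known as plasma membrane importers, and ZIP6 forms a complex with ZIP10. The normalized count of Slc39a4 went from 301 ± 26.7 to 181 ± 21.4 and that of Slc39a1 from 868 ± 54.7 to 597 ± 26.8 (SD, n = 3 each). Slc39a11 rose by 0.23, a call that was lost with library totals (0.12, adjusted p = 0.16) and with upper quartile scaling (0.16, adjusted p = 0.0638). Slc39a7, the endoplasmic reticulum importer gene, had 7184 ± 503 normalized counts in Control and 7022 ± 213 after H/R and did not pass (log2 fold change -0.03, adjusted p = 0.556). With library totals it was -0.14 and passed (adjusted p = 0.00562), and 80.1% of its exon length is shared with Gm20427 on the same strand. Slc39a13 did not pass either (-0.32, edgeR's adjusted p = 0.072), but with library totals it did (-0.42, adjusted p = 0.0222). In the summed RPKM of the whole family, Control libraries held 205, 207 and 196 and H/R libraries 170, 179 and 176, most of it from Slc39a7. RPKM is scaled by library totals, and the size of this fall depended on scaling. The summed TMM-normalized counts nearly met, with 12532 to 13384 in Control and 12044 to 12494 after H/R.

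**Figure D4:**
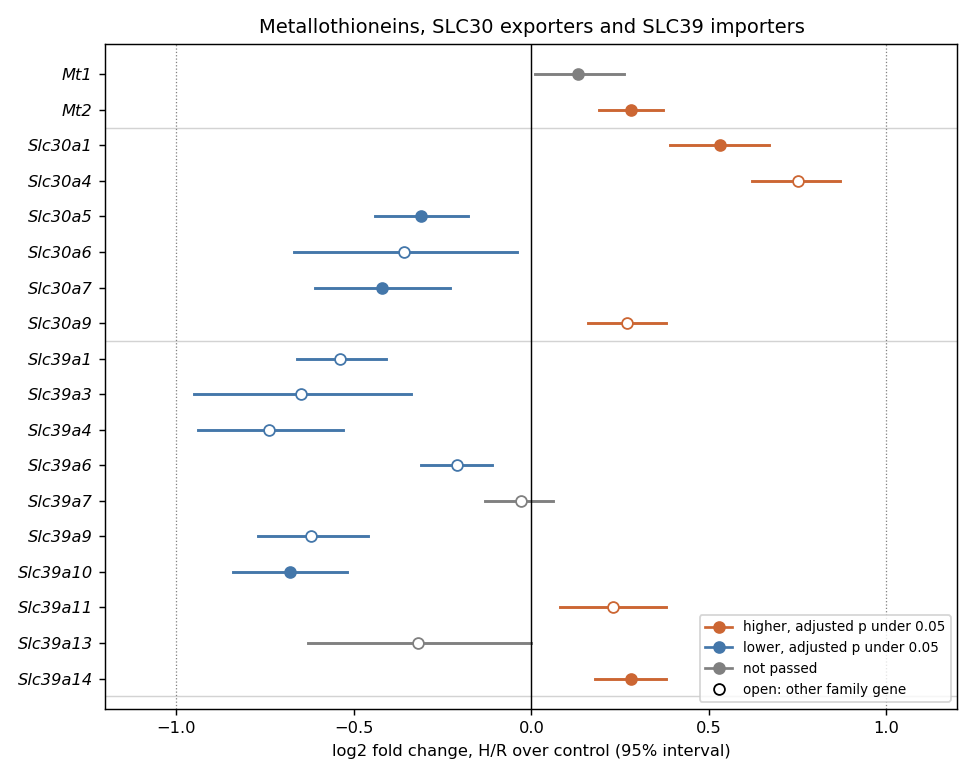
Log2 fold change of H/R over Control (x axis) for the 18 tested metallothionein, SLC30 and SLC39 genes, with 95% intervals as lines. Filled points are members and open points the other genes of the families, orange passed higher, blue passed lower and grey did not pass. No point reaches a log2 fold change of 1 in size (dotted lines). Slc30a1, Slc30a4 and Slc30a9 lie to the right, and 8 of the 10 SLC39 genes lie to the left, of which 6 passed.

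Other known targets of MTF-1 were read from the same fit. Of 7 listed targets that are not members, 6 passed higher and 1 lower, against 31.0% and 31.8% of all tested genes. The median log2 fold change of the 7 targets was 0.86. A rise of at least 2-fold was found in 3 of the 7 and in 4.25% of all tested genes. The placental growth factor gene Pgf rose by 4.74 on the log2 scale, from 17, 7 and 6 counts to 241, 233 and 266, and by 5.35 without Control replicate 1. Ndrg1 rose by 3.24, Csrp1, which encodes a LIM domain protein, by 1.12, and the selenoprotein gene Selenow by 0.86. Gclc, which was named after its value was seen and encodes the catalytic subunit of glutamate-cysteine ligase, fell by 0.34 on the log2 scale. Pgf and Ndrg1 are also known to respond to hypoxia, and Ndrg1 stands on both lists used here.

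Genes with other inducers known to act on metallothioneins were read beside Mt1 and Mt2. Of 9 tested glucocorticoid-induced genes other than the metallothioneins, 4 passed higher and 1 lower, with a median log2 fold change of 0.19. The shares over all tested genes were 31.0% higher and 31.8% lower. The largest rises were those of Errfi1 (1.71), Dusp1 (1.41), Per1 (0.41) and Klf9 (0.31), of which Errfi1, Dusp1 and Per1 are also known as immediate-early genes. The glucocorticoid targets Tsc22d3 (0.08, adjusted p = 0.148) and Fkbp5 (0.10, adjusted p = 0.0551 in edgeR's test), named after their values were seen, did not pass, and with library totals both changed sign. Tat had at most 2 counts. Sgk1, also named after its value was seen, was the gene that fell (-0.17). Of 12 hypoxia-induced genes 11 passed higher, each by at least 2-fold (9 with library totals), with a median log2 fold change of 2.08. Such a rise was found in 4.25% of all tested genes. Adm rose by 3.78, Bnip3 by 3.05 and the glucose transporter gene Slc2a1 by 3.01, while Car9 (-0.17), named after its value was seen, did not pass. The part of glucocorticoid or hypoxia signals in the values of the zinc genes was not tested.

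Copper handling genes were examined because metallothioneins also bind copper. Of 11 genes 4 passed higher and 3 lower, and the median log2 fold change was -0.05. This was near the shares over all tested genes, 31.0% higher and 31.8% lower. Atp7a, a copper exporter gene, rose by 0.48. The mitochondrial copper chaperone gene Cox17 fell by 0.37 and the copper importer gene Slc31a1 fell by 0.34, both on the log2 scale. Sco1 had a log2 fold change of 0.27. The calls depended on scaling, and with library totals 1 gene passed higher and 4 lower.

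**Figure D5:**
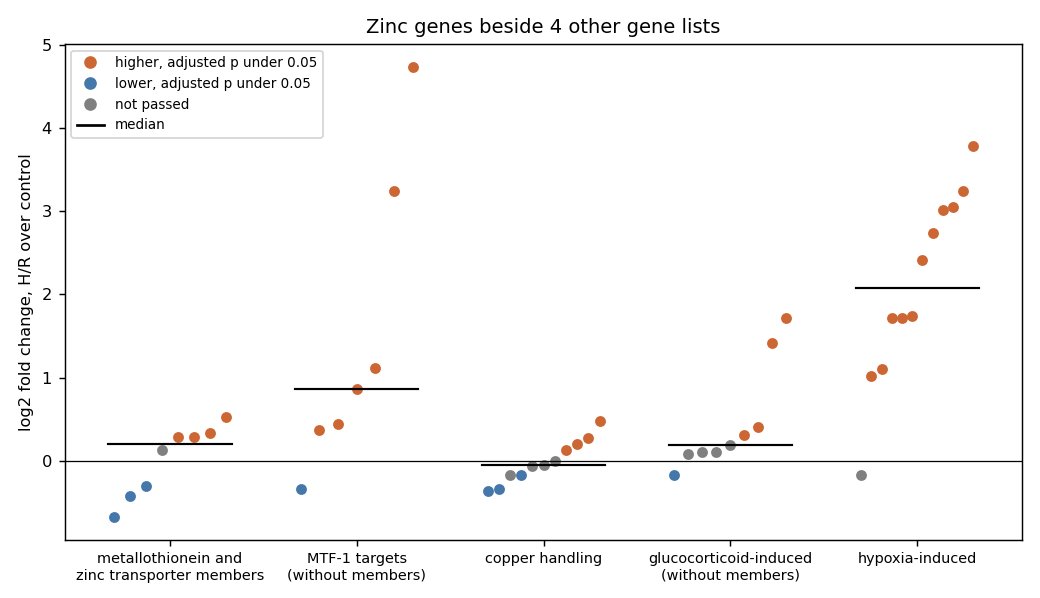
Log2 fold change of H/R over Control (y axis) for each tested gene of 5 lists, sorted within a list. Orange points passed higher, blue lower, grey did not pass, and black bars are list medians. The zinc members lie between -0.68 and 0.53, whereas hypoxia-induced genes have a median of 2.08.

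The genes whose profile over the 6 libraries was nearest to a member were sought among 10177 genes with a mean normalized count of at least 100, by the Euclidean distance of mean-centred log2 CPM. Nearest to Slc30a1 were Abcf3 (distance 0.046), Hspbap1, Lmcd1, Fdx1 and Prr13, with log2 fold changes from 0.51 to 0.57. Nearest to Slc39a10 were Ccdc125 (distance 0.0686), Dgkz, Ncoa5, Mpv17 and Dennd3, with log2 fold changes from -0.72 to -0.65. The measure rests on 6 libraries in 2 groups and says nothing of shared function or control.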

How the data were processed

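Total RNA was extracted with TRIzol, and libraries from a stranded mRNA kit were read from both ends. The authors mapped reads to GRCm38 with software printed as STRA. The submitters' processing notes also name Trimmomatic 0.36, featureCounts, Subread 1.5.1 and edgeR 3.12.1. Each deposited table of the authors lists raw, unscaled counts of reads per gene, and the RPKM values deposited by the authors follow from count, gene length and library total (largest relative error 1.13e-06). Genes with overlapping exons on opposite strands received nearly the same reads, so strand appears not to separate them. Libraries were grouped by their titles.

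The comparison was fitted with edgeR 4.0.16 under R 4.3.3 (filterByExpr, TMM, glmQLFit with robust dispersions, glmQLFTest, Benjamini-Hochberg adjustment over 14020 genes). Normalized counts are counts divided by effective library size and multiplied by its mean. Intervals are 95%. The main fit and some of the alternatives were also run on simulated counts. That simulation had the same dispersion for every gene and far fewer changed genes than passed here. It therefore cannot give the error rates of these data. Alternatives were DESeq2 1.42.0, other scalings and filters, a replicate block, a gene length offset, limma 3.58.1 on log2(RPKM + 1) and log2(RPKM + 0.1), and leaving out each library. Within each group no library was a copy of another. For pairs of replicates, chi-square divided by its degrees of freedom was 2.19 to 3.35 in H/R. In Control it was 15.5 and 16.2 for the pairs with replicate 1 and 5.6 for the other pair. Members and lists were chosen with earlier results of these data known. Named were all members, family genes and up to 4 genes with the largest log2 fold change per other list. The 5 nearest profiles of the members with the largest rise and fall were named too. Gclc, Tsc22d3, Fkbp5, Tat, Sgk1 and Car9 were named outside this rule. Promoters come from RefSeq tables.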

Additional observations from a re-analysis of the deposited data

How the results depend on the processing

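The directions of all 8 tested members held in each of the 16 alternative fits, and 6 to 8 of them passed. Mt1 passed in 5 of these fits and Mtf1 was lost in 2, both on RPKM. The count of members past 2-fold was 0 in all 16 fits and 1 with a threshold of 1.5-fold. Without a fold threshold 7 members passed. For the families the count was likewise 0 in all 16 fits, 5 at 1.5-fold and 15 without a fold threshold. Over all genes the count was 1195, against 3420 at 1.5-fold, 8806 without a fold threshold and 406 with limma on log2(RPKM + 1), and 882 to 1521 in the other alternatives. With 1 library left out, the member count stayed at 0, the family count at 0 and the count over all genes between 1211 and 1291. Counting family genes under the other settings without a fold threshold was chosen after seeing the data and gave 14 to 17. Over all tested genes the median was -0.014 on the log2 scale, -0.119 when only library totals were used and -0.084 for upper quartile scaling. The share of genes called at 2-fold that rose was 49.9%, 37% and 41.3% in that order. Libraries with the same replicate number did not deviate together (correlation of deviations -0.03, 0.00 and -0.01). With the replicate block 1200 genes were called over all, 0 of them members, and the same 7 members passed. The difference between groups in the log2 ratio of Mt2 to Mt1 was 0.14, and between 0.06 (without Control replicate 3) and 0.19 with 1 library left out. Depth limits Slc39a8 and Mt4, which had at most 4 counts.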
